A study of Mus musculus with 2 samples.

Results

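The voltage-gated and related ion channel genes of the table were those annotated as protein-coding whose symbols begin with Kcn, with Kcnj10 left out by the rule, with Cacn, or with Scn or Hcn followed by a digit. The rule found 113 of the 19595 genes in the table, of which 15095 are protein-coding: 74 potassium channel genes, 12 sodium channel genes, 23 calcium channel genes and 4 HCN genes. They were sorted by symbol into 18 classes of pore and accessory subunits. The rule used names alone and no measured value.

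Potassium channels let potassium leave the cell and hold the membrane near its resting potential or repolarise it after an action potential. Voltage-gated sodium channels carry the upstroke of the action potential, voltage-gated calcium channels couple depolarisation to transmitter release and gene expression, and HCN channels open on hyperpolarisation and carry a pacemaker current. Radial glia and other neural progenitors of the embryonic brain have a membrane dominated by potassium conductances, and sodium, calcium and HCN channels are gained as neurons differentiate.

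The RNA came from neural stem cells taken from the brain of ICR mice at embryonic day 13 and was read by Illumina sequencing. The knockdown library (sh1, genotype KO) came from cells in which Ccdc25, a coiled-coil domain protein, was knocked down. The control library (psicor, genotype WT) came from cells of the same strain and stage, and the series, by its title, is about Ccdc25 in neurogenesis. The labels do not give the sequence of the hairpin, the vector's promoter or the number of embryos behind a library. The design text speaks of triplicates but the table holds a single count column for each group. No difference given here has therefore been checked in replicates or tested, and intervals are 95% intervals of counting error alone.

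Counts on genes totalled 16058407 in the knockdown library and 16549682 in the control. Expression is given as CPM, the count of a gene per 1000000 counts after scaling both libraries to a common size. For scale, 3 counts equal 0.190 CPM in the knockdown library and 0.178 CPM in the control. Ccdc25 had 411 counts in the knockdown library and 553 in the control, a ratio of 0.794 (0.697 to 0.904). The neural stem cell markers Nes, Sox2, Pax6, Vim, Fabp7, Hes5, Msi1 and Prom1 were all detected in both libraries and summed to 7969 CPM in the knockdown library and 6230 CPM in the control. Both libraries also held RNA of differentiated cells: 16 of 16 neuronal markers passed a minimum mean of 1 CPM, 12 of them were at least 2-fold lower in the knockdown library, and they summed to 1616 CPM there and to 3818 CPM in the control. In RNA from many cells, fewer cells of a type and less RNA per cell cannot be told apart.

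Channel genes were lower in the knockdown library far more often than higher. Of the 113 genes, 92 reached a mean of 1 CPM across the pair of libraries. Folds are on the log2 scale with 0.5 counts added, and ratios are of scaled counts without that addition. Of these 92, 36 were at least 2-fold lower in the knockdown library (39.1%), 8 were at least 2-fold higher (8.70%) and 48 lay within 2-fold. Among all 14158 genes past the same minimum 7.76% were 2-fold lower and 7.64% were 2-fold higher, and among the 12721 protein-coding ones 7.77% were lower and 6.97% higher. The median log2 fold, knockdown over control, was -0.79 for the channel genes and -0.013 for protein-coding genes. In all, 67 of the 92 stood below their control level and 25 above it.

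Level matters for that background, since genes with few counts pass 2-fold more often. Among protein-coding genes averaging 1 to 10 CPM, 17.7% were 2-fold lower and 14.3% were 2-fold higher, against 21 lower (48.8%) and 2 higher of the 43 channel genes in that range. Among those averaging at least 10 CPM, 4.85% were lower and 4.81% higher, against 15 lower (30.6%) and 6 higher (12.2%) of 49 channel genes. In both ranges the share of channel genes that were lower was above the background. Among the better expressed channel genes the share that were higher was above it as well.

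The summed level of all channel genes differed little. It came to 2282 CPM in the knockdown library and 2394 CPM in the control, a ratio of 0.953 (0.940 to 0.967). The families behind that sum went apart. Potassium channel genes summed to 1414 CPM in the knockdown library and 1190 CPM in the control (ratio 1.19, 1.17 to 1.21), although 17 of the 59 past the minimum were 2-fold lower and 7 were 2-fold higher. Their median log2 fold was -0.42, with 38 of the 59 below control and 21 above it. Part of the higher sum lay in the Kv1 to Kv4 pore genes. These had 715 CPM in the knockdown library and 550 CPM in the control (ratio 1.30, 1.27 to 1.34). Another part lay in abundant ancillary genes. Kcnip3 had 137 and 56.3 CPM, and Kcne1l 129.9 and 29.8 CPM, in the knockdown and control libraries. Sodium channel genes had a summed ratio of 0.475 (0.445 to 0.506), with 6 of 8 lower and 0 higher. Calcium channel genes had a summed ratio of 0.805 (0.786 to 0.825), with 10 of 21 lower and 1 higher. That family includes the gamma genes, described below, which had a summed ratio of 1.13 (1.08 to 1.18) and held the 1 higher gene. HCN genes had a summed ratio of 0.447 (0.411 to 0.486), with 0 of 4 higher. The neuronal markers moved the same way as the sodium, calcium and HCN genes; their part in these results was not tested.

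**Figure D1:**
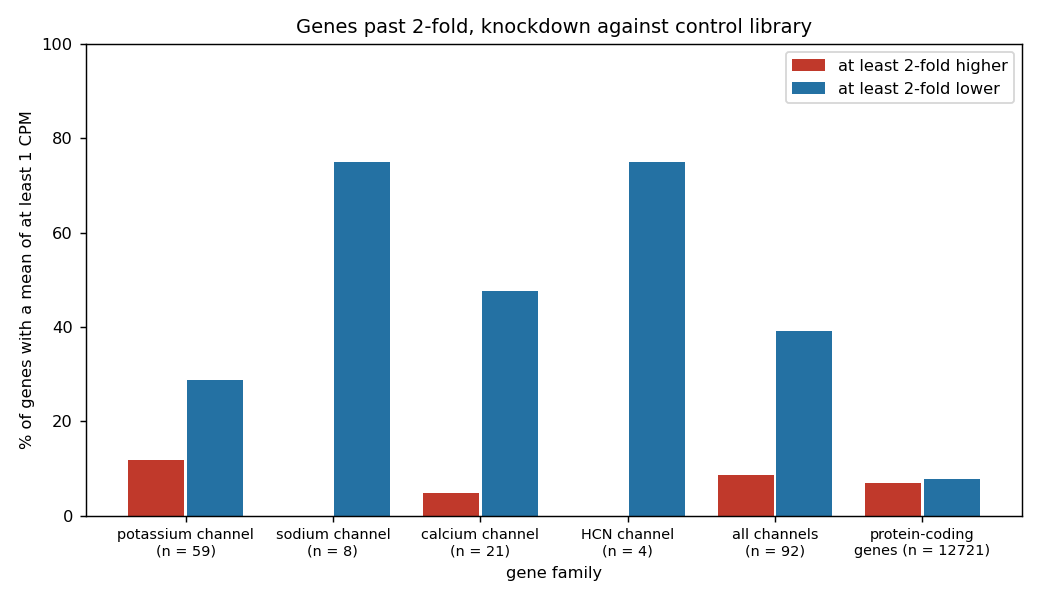
Share of genes past the minimum, in percent, that were at least 2-fold higher (red) or lower (blue) in the knockdown library, for each channel family, all channel genes and all protein-coding genes. Of all channel genes 39.1% were lower and 8.70% higher, beside 7.77% and 6.97% of protein-coding genes, and no sodium channel or HCN gene was 2-fold higher.

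**Figure D2:**
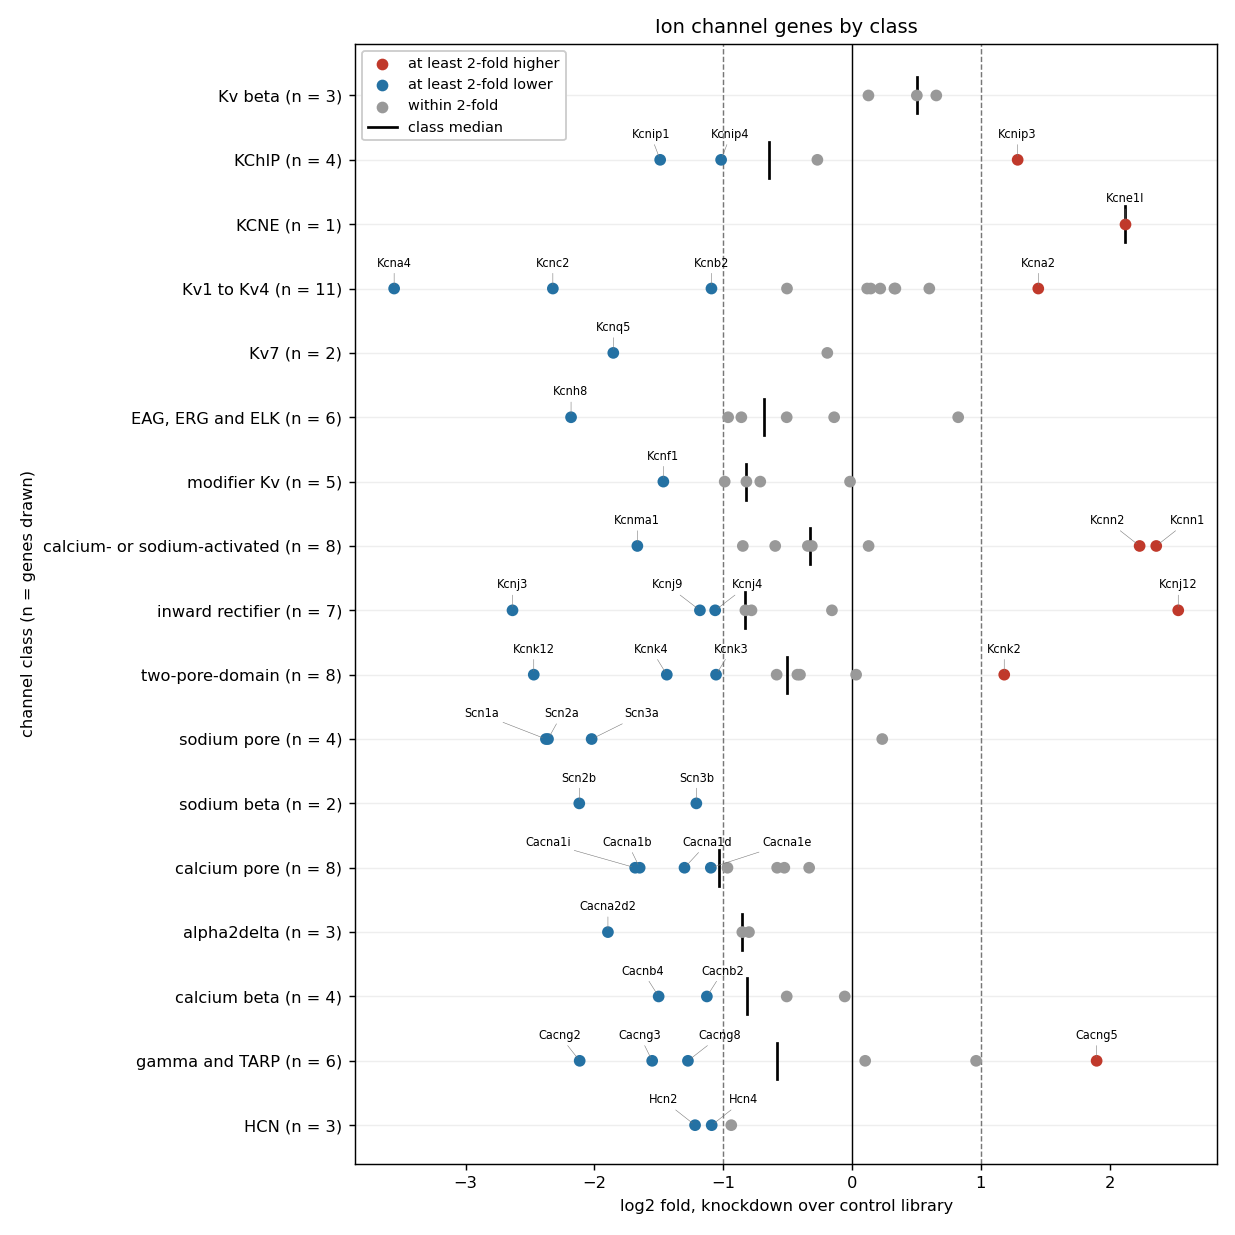
Log2 fold, knockdown over control library, of channel genes past the minimum, by class, without genes not reported singly; a point is a gene, the black bar is the median of a class drawn whole and dashed lines mark 2-fold. The calcium pore class has a median of -1.03, Kcna4 lies farthest left at -3.55 and Kcnj12 farthest right at 2.53.

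Of the 5 sodium channel pore subunit genes past the minimum, 3 were 2-fold lower in the knockdown library and the abundant Scn8a was not. Scn1a, the pore subunit best known from fast-spiking interneurons, had 36 counts in the knockdown library and 202 in the control (2.28 and 11.99 CPM), a ratio of 0.190 (0.130 to 0.273). Scn2a, the pore subunit of the axons of young excitatory neurons, had 90 counts in the knockdown library and 496 in the control (5.71 and 29.4 CPM), a ratio of 0.194 (0.153 to 0.243). Scn3a, a pore subunit of the embryonic brain, had 69 counts in the knockdown library and 301 in the control (4.38 and 17.9 CPM), a ratio of 0.245 (0.186 to 0.319). These pore genes lie in a cluster on chromosome 2 in the GRCm38 positions of the table: Scn3a at chr2:65457118-65567627 on the minus strand, Scn2a 53.1 kb beyond it and Scn1a a further 503 kb on. Scn8a, the pore subunit of mature initial segments and nodes of Ranvier, lies on chromosome 15 and had 685 counts in the knockdown library and 622 in the control (43.4 and 36.9 CPM), a ratio of 1.18 (1.05 to 1.31). The interval of Scn8a lay above those of Scn1a, Scn2a and Scn3a. Scn9a and Scn7a of the same cluster stayed under the minimum, with intervals that included 1.

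The mix of pore subunits therefore differed between the libraries. Of the summed pore subunit level per length, as CPM per kilobase of exon, Scn8a made up 68.5% in the knockdown library and 30.8% in the control. Scn2a made up 11.1% in the knockdown library and 30.4% in the control. The order of these subunits, nearly level in the control library, was clear in the knockdown library, where Scn8a led.

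The sodium channel beta subunit genes Scn2b and Scn3b were both 2-fold lower in the knockdown library. These single-pass proteins of the immunoglobulin fold set the gating and surface level of the pore subunit and act in cell adhesion. Scn2b, which binds the pore covalently, had 27 counts in the knockdown library and 127 in the control, a ratio of 0.227 (0.144 to 0.346). Scn3b, which binds it without a covalent bond, had 318 counts in the knockdown library and 786 in the control, a ratio of 0.432 (0.378 to 0.493). The interval of Scn2b lies wholly below that of Scn3b.

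HCN genes were lower in the knockdown library in their sum, given above, and the 3 described here had similar ratios. Hcn2, the cAMP-sensitive subunit of thalamus and heart, had 313 counts in the knockdown library and 779 in the control (19.8 and 46.2 CPM), a ratio of 0.429 (0.375 to 0.490). Hcn4, the slow subunit of the sinoatrial pacemaker, had 173 counts in the knockdown library and 394 in the control, a ratio of 0.469 (0.390 to 0.562). Hcn3 lay just inside 2-fold with 312 and 639 counts in the knockdown and control libraries and a ratio of 0.522 (0.454 to 0.598). Hcn2, Hcn3 and Hcn4 differed little from each other in ratio, with overlapping intervals.

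All 8 calcium channel pore subunit genes stood below their control level, and each counting interval lay below 1. Cacna1b, the N-type pore subunit of presynaptic terminals, had 268 counts in the knockdown library and 899 in the control (17.0 and 53.3 CPM), a ratio of 0.319 (0.277 to 0.366). Cacna1e, the R-type subunit, had 156 counts in the knockdown library and 357 in the control, a ratio of 0.467 (0.384 to 0.565). Cacna1a, the P/Q-type subunit that also drives transmitter release, lay within 2-fold with a ratio of 0.694 (0.613 to 0.786). Within this presynaptic group the N-type gene had the lowest ratio, below the interval of the other two.

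Among the L-type subunits, which couple calcium entry to transcription, Cacna1d had 62 counts in the knockdown library and 164 in the control, a ratio of 0.404 (0.297 to 0.544). Cacna1c had 362 counts in the knockdown library and 579 in the control, a ratio of 0.668 (0.584 to 0.763), which lay within 2-fold. Among the low-voltage-activated T-type subunits, Cacna1i had 76 counts in the knockdown library and 262 in the control, a ratio of 0.310 (0.237 to 0.402). Cacna1g had a ratio of 0.511 (0.440 to 0.593), close to 2-fold lower. Cacna1h, the most abundant pore subunit of the class, had 1981 counts in the knockdown library and 2666 in the control (126 and 158 CPM) and a ratio of 0.794 (0.749 to 0.842), the highest of the 8. Within the summed calcium pore subunit level per kilobase of exon it held 61.6% in the knockdown library and 49.0% in the control. Summed by type, the ratio was 0.610 (0.540 to 0.688) for the L-type genes, 0.475 (0.438 to 0.516) for the P/Q, N and R-type genes and 0.713 (0.676 to 0.751) for the T-type genes. These types, like the other subgroups named below, are standard nomenclature applied after the values were seen.

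Accessory calcium channel subunits were lower as well, with an exception among the most abundant. Cacna2d2, an extracellular alpha2delta subunit that promotes trafficking of the pore and binds gabapentin, had 57 counts in the knockdown library and 228 in the control, a ratio of 0.267 (0.196 to 0.359). Cacna2d1, the other gabapentin-binding subunit and the most abundant of its class, had 440 counts in the knockdown library and 819 in the control, a ratio of 0.574 (0.510 to 0.645), and Cacna2d3 had a ratio of 0.553 (0.424 to 0.717). Cacnb4, a cytoplasmic beta subunit mutated in the lethargic mouse, had 40 counts in the knockdown library and 122 in the control, a ratio of 0.350 (0.239 to 0.504). Cacnb2, the beta subunit best known from heart, had 43 counts in the knockdown library and 101 in the control, a ratio of 0.455 (0.311 to 0.656). Cacnb1 lay within 2-fold at 0.704 (0.643 to 0.770). Cacnb3, by far the most abundant beta subunit, had 2364 counts in the knockdown library and 2627 in the control and a ratio of 0.962 (0.909 to 1.02), so that it differed by less than its counting error.

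The gamma subunit genes divided by type. In the brain most of them encode TARPs, the transmembrane proteins that escort AMPA receptors to the synapse and slow their gating, rather than calcium channel subunits proper. Of the type I TARPs, Cacng2 or stargazin, which is mutated in the stargazer mouse, had 53 counts in the knockdown library and 247 in the control, a ratio of 0.229 (0.167 to 0.310). Cacng3 had 45 counts in the knockdown library and 142 in the control, a ratio of 0.339 (0.237 to 0.477). Cacng8 had 98 counts in the knockdown library and 254 in the control, a ratio of 0.412 (0.323 to 0.522). These 3 were 2-fold lower, whereas Cacng4, the type I TARP with the highest level, had 2592 counts in the knockdown library and 2580 in the control (164 and 153 CPM) and a ratio of 1.07 (1.02 to 1.13).

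Both type II TARPs stood above their control level. Cacng5 had 270 counts in the knockdown library and 77 in the control (17.1 and 4.57 CPM), a ratio of 3.75 (2.90 to 4.89). Cacng7 had 1004 counts in the knockdown library and 550 in the control, a ratio of 1.95 (1.76 to 2.17), just inside 2-fold. Both intervals lie above the interval of every type I gene. Summed over type, the ratio was 2.17 (1.97 to 2.39) for type II and 0.924 (0.878 to 0.973) for type I. Neighbours on a chromosome differed: Cacng7 and Cacng8 lie 22.5 kb apart on chromosome 7, and Cacng4 and Cacng5 lie 80.0 kb apart on chromosome 11. The class median of -0.59 turned to 0.096 with no minimum and to 0.53 with a minimum of 10 CPM. Markers of the oligodendrocyte lineage, 7 of 9 of which were 2-fold higher, summed to 4759 CPM in the knockdown library and 2927 CPM in the control. Markers of astrocytes, 4 of 7 of which were 2-fold higher, summed to 4840 CPM in the knockdown library and 635 CPM in the control. Whether they bear on the higher channel genes was not tested.

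Among the classical voltage-gated potassium channel pore genes, Kv1 to Kv4, most of the summed level lay in genes within 2-fold. Kcnc1, a fast delayed rectifier of the Kv3 type and the most abundant of all 113 channel genes, had 5074 counts in the knockdown library and 4997 in the control (322 and 297 CPM), a ratio of 1.09 (1.04 to 1.13). Kcnc2, the Kv3 gene of fast-spiking interneurons, was 2-fold lower with 14 and 77 counts in the knockdown and control libraries and a ratio of 0.194 (0.101 to 0.346). Kcnc4, another Kv3 gene, had 365 counts in the knockdown library and 335 in the control, a ratio of 1.16, within 2-fold.

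The Kv1 genes spread widely in both directions. Kcna2, which forms the low-threshold current beside nodes of Ranvier, had 1421 counts in the knockdown library and 557 in the control (90.1 and 33.1 CPM), a ratio of 2.73 (2.47 to 3.01). Kcna4, the rapidly inactivating Kv1 subunit (ENSMUSG00000042604), had 4 counts in the knockdown library and 56 in the control (0.254 and 3.32 CPM), a ratio of 0.0763 (0.0201 to 0.207). Kcna6 lay within 2-fold at 1.26 (1.04 to 1.53), and Kcna5 had 15 and 23 counts with an interval that included 1. Kcna3, which lies 63.1 kb from Kcna2 on chromosome 3, stayed under the minimum and had 8 and 21 counts in the knockdown and control libraries, a ratio of 0.407 (0.156 to 0.957). Of the Kv2 delayed rectifiers, Kcnb2 had 23 counts in the knockdown library and 53 in the control, a ratio of 0.464 (0.271 to 0.770).

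The Kv4 genes, which carry the transient A-type current of dendrites, lay within 2-fold. Kcnd3 had 1467 counts in the knockdown library and 1034 in the control, a ratio of 1.52 (1.40 to 1.64), and Kcnd2 and Kcnd1 had ratios of 1.11 (0.970 to 1.26) and 1.26 (0.830 to 1.92). Their calcium-binding KChIP partners differed among themselves. Kcnip3, also known as the transcriptional repressor DREAM or as calsenilin, had 2164 counts in the knockdown library and 948 in the control (137 and 56.3 CPM), a ratio of 2.44 (2.26 to 2.64). Kcnip1 had 66 counts in the knockdown library and 199 in the control, a ratio of 0.354 (0.264 to 0.470). Kcnip4 had 15 counts in the knockdown library and 33 in the control, a ratio of 0.486 (0.245 to 0.920), and Kcnip2 lay within 2-fold at 0.830 (0.700 to 0.982). Within the summed KChIP level per kilobase of exon, Kcnip3 made up 87.6% in the knockdown library and 66.6% in the control.

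Kcne1l, now usually called Kcne5, is a single-pass ancillary subunit that modulates Kv7 and Kv4 pores, and it had the highest ratio among ancillary genes past the minimum. It had 2048 counts in the knockdown library and 503 in the control (129.9 and 29.8 CPM), a ratio of 4.35 (3.94 to 4.81). Kcne2, of the same class, had 3 and 7 counts in the knockdown and control libraries and stayed under the minimum. The cytoplasmic Kv beta genes stood above control within 2-fold: Kcnab2 at 1.09 (0.977 to 1.22), Kcnab3 at 1.58 (1.22 to 2.05) and Kcnab1 at 1.42 (0.813 to 2.53). The interval of Kcnab3 was the only one of them to exclude 1.

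Kv7 genes, the source of the neuronal M current that restrains repetitive firing, had the lowest summed ratio of the potassium channel classes, 0.330 (0.301 to 0.360). Kcnq5 had 75 counts in the knockdown library and 291 in the control, a ratio of 0.275 (0.211 to 0.356). Kcnq3, which also contributes to this current, had 190 counts in the knockdown library and 232 in the control and a ratio of 0.875 (0.719 to 1.06), with an interval that included 1. The intervals of Kcnq5 and Kcnq3 did not overlap. Kcnq3 held 19.7% in the knockdown library and 8.18% in the control of the summed Kv7 level per kilobase of exon.

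**Figure D3:**
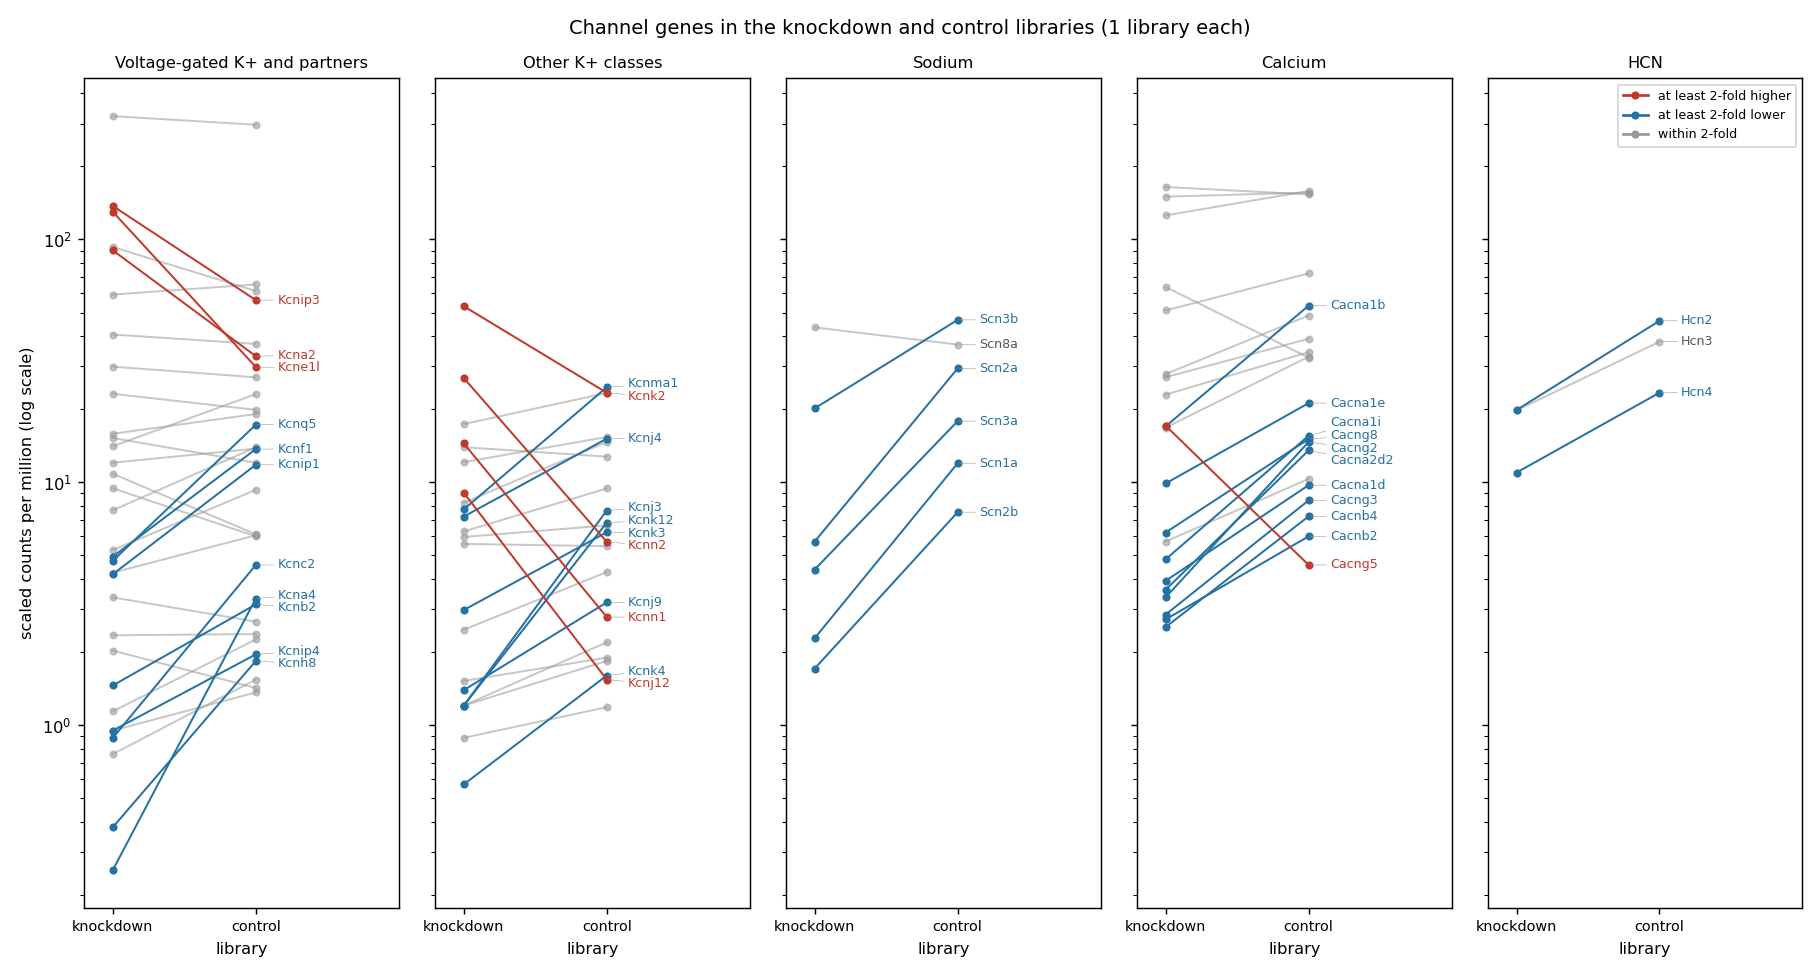
CPM on a log axis in the knockdown library (left) and the control (right) for channel genes past the minimum, in 5 panels by family, without genes not reported singly; each line is a gene, red for 2-fold higher, blue for 2-fold lower and grey for within 2-fold. Kcna4, at 0.254 and 3.32 CPM, and Kcnj12, at 9.07 and 1.54 CPM, have the steepest lines in each direction.

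The EAG, ERG and ELK genes were mostly within 2-fold. Kcnh8, an ELK subunit, was the 1 gene below it, with 6 counts in the knockdown library and 31 in the control and a ratio of 0.207 (0.0705 to 0.503). Kcnh2, the ERG channel of cardiac repolarisation and the most abundant gene of the class, had 935 counts in the knockdown library and 1100 in the control, a ratio of 0.908 (0.832 to 0.992). The ELK gene Kcnh3 and the EAG gene Kcnh1 had ratios of 0.550 (0.438 to 0.688) and 0.506 (0.272 to 0.909). Kcnh7, another ERG gene, had 171 counts in the knockdown library and 103 in the control, a ratio of 1.77 (1.38 to 2.29), but it shares 696 exonic bases with Gca, which had 229 and 115 counts in the knockdown and control libraries. Among the silent modifier subunits, which form channels only together with Kv2 pores, Kcnf1 had 78 counts in the knockdown library and 231 in the control, a ratio of 0.361 (0.275 to 0.468). Kcng1, the most abundant of them, had 222 counts in the knockdown library and 389 in the control, a ratio of 0.610 (0.515 to 0.721), and Kcnv1 had a ratio of 0.565 (0.428 to 0.742). Kcns2 had 12 and 26 counts and an interval that included 1, and Kcns1 a ratio of 0.988 (0.615 to 1.59).

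Of the 3 small-conductance calcium-activated (SK) channel genes, 2 were past 2-fold on the higher side in the knockdown library. These channels are gated by calmodulin and carry the afterhyperpolarisation that follows a train of action potentials. Kcnn1 (ENSMUSG00000002908, chr8:70842049-70863258 on the minus strand) had 228 counts in the knockdown library and 47 in the control (14.5 and 2.79 CPM), a ratio of 5.18 (3.77 to 7.26). It shares 132 exonic bases with A230052G05Rik, which had 38 and 4 counts in the knockdown and control libraries. Kcnn2 had 424 counts in the knockdown library and 96 in the control (26.9 and 5.70 CPM), a ratio of 4.72 (3.77 to 5.95). Kcnn3 had 220 counts in the knockdown library and 215 in the control, a ratio of 1.09 (0.902 to 1.33), with an interval that included 1. Summed, SK genes had a ratio of 2.60 (2.30 to 2.95). Kcnma1, the pore of the large-conductance BK channel, went the other way with 122 counts in the knockdown library and 415 in the control (7.74 and 24.6 CPM), a ratio of 0.314 (0.255 to 0.385). Within the summed level of calcium- or sodium-activated genes per kilobase of exon, Kcnn2 held 32.6% in the knockdown library and 9.93% in the control. On the same scale Kcnn1 held 28.5% in the knockdown library and 7.92% in the control, and Kcnma1 held 4.13% in the knockdown library and 18.9% in the control. The sodium-activated pore gene Kcnt1 had a ratio of 0.788 (0.650 to 0.954), and the sperm channel gene Kcnu1 had 19 and 37 counts and a ratio of 0.549 (0.298 to 0.979). Kcnmb4, the neuronal BK beta subunit, had 19 and 31 counts, and 693 of its exonic bases are shared with the antisense gene Kcnmb4os2.

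Inward rectifier genes held the highest ratio of all channel genes past the minimum. Kcnj12, a strong rectifier of the Kir2 type, had 143 counts in the knockdown library and 26 in the control (9.07 and 1.54 CPM), a ratio of 5.88 (3.85 to 9.30). Its Kir2 relatives were not higher: Kcnj4 had 114 counts in the knockdown library and 255 in the control, a ratio of 0.478 (0.380 to 0.598), and Kcnj2 had 39 and 72 counts, a ratio of 0.579 (0.382 to 0.866). Summed over the Kir2 genes the ratio was 0.871 (0.746 to 1.02), an interval that included 1. Within the summed inward rectifier level per kilobase of exon, Kcnj12 held 28.5% in the knockdown library and 3.36% in the control, and Kcnj4 held 29.0% in the knockdown library and 42.1% in the control. Kcnj16, which pairs with the glial inward rectifier pore, had 130 counts in the knockdown library and 247 in the control, a ratio of 0.562 (0.451 to 0.698), and Kcnj11, the pore of ATP-sensitive channels, had 0.897 (0.674 to 1.19).

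Of the 4 G-protein-gated (GIRK) subunit genes, which carry slow inhibition by transmitter receptors, 2 passed the minimum and both were 2-fold lower in the knockdown library. Kcnj3 had 19 counts in the knockdown library and 129 in the control (1.20 and 7.65 CPM), a ratio of 0.157 (0.0918 to 0.256). Kcnj9 had 22 counts in the knockdown library and 54 in the control, a ratio of 0.435 (0.252 to 0.727). Kcnj6 had 0 counts in the knockdown library and 8 in the control, with an interval of the ratio that reached up to 0.626, and Kcnj5 had 0 and 5, with an interval that included 1. Summed, GIRK genes had a ratio of 0.224 (0.156 to 0.314), the lowest of the subgroups formed. Kcnj6 and Kcnj5 stayed under the minimum.

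Two-pore-domain genes, which set the background potassium conductance of glia and progenitors, had 1 gene 2-fold higher and 3 lower. Kcnk2, the mechanically gated TREK channel, had 837 counts in the knockdown library and 394 in the control (53.1 and 23.4 CPM), a ratio of 2.27 (2.01 to 2.57). It shares 604 exonic bases with A430027H14Rik, which had 47 and 12 counts in the knockdown and control libraries. Kcnk10, its close relative, had 274 counts in the knockdown library and 393 in the control, a ratio of 0.745 (0.636 to 0.871). Kcnk4, or TRAAK, had 9 counts in the knockdown library and 27 in the control, a ratio of 0.356 (0.147 to 0.780), and shares 587 exonic bases with Catsperz on the same strand. Kcnk12, of the THIK type, had 19 counts in the knockdown library and 115 in the control (1.20 and 6.82 CPM), a ratio of 0.177 (0.103 to 0.288). Kcnk3, an acid-sensitive TASK channel, had 47 counts in the knockdown library and 105 in the control, a ratio of 0.478 (0.332 to 0.681), and shares 229 exonic bases with Gm9899, which had 18 and 43 counts. Kcnk9, the other TASK gene, had 0 counts in the knockdown library and 15 in the control, with an interval of the ratio that reached up to 0.298. Kcnk1 and Kcnk5 lay within 2-fold at 1.02 (0.754 to 1.38) and 0.665 (0.512 to 0.860). Within the summed two-pore-domain level per kilobase of exon, Kcnk2 held 56.9% in the knockdown library and 25.5% in the control, and Kcnk12 held 3.24% in the knockdown library and 18.6% in the control.

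**Figure D4:**
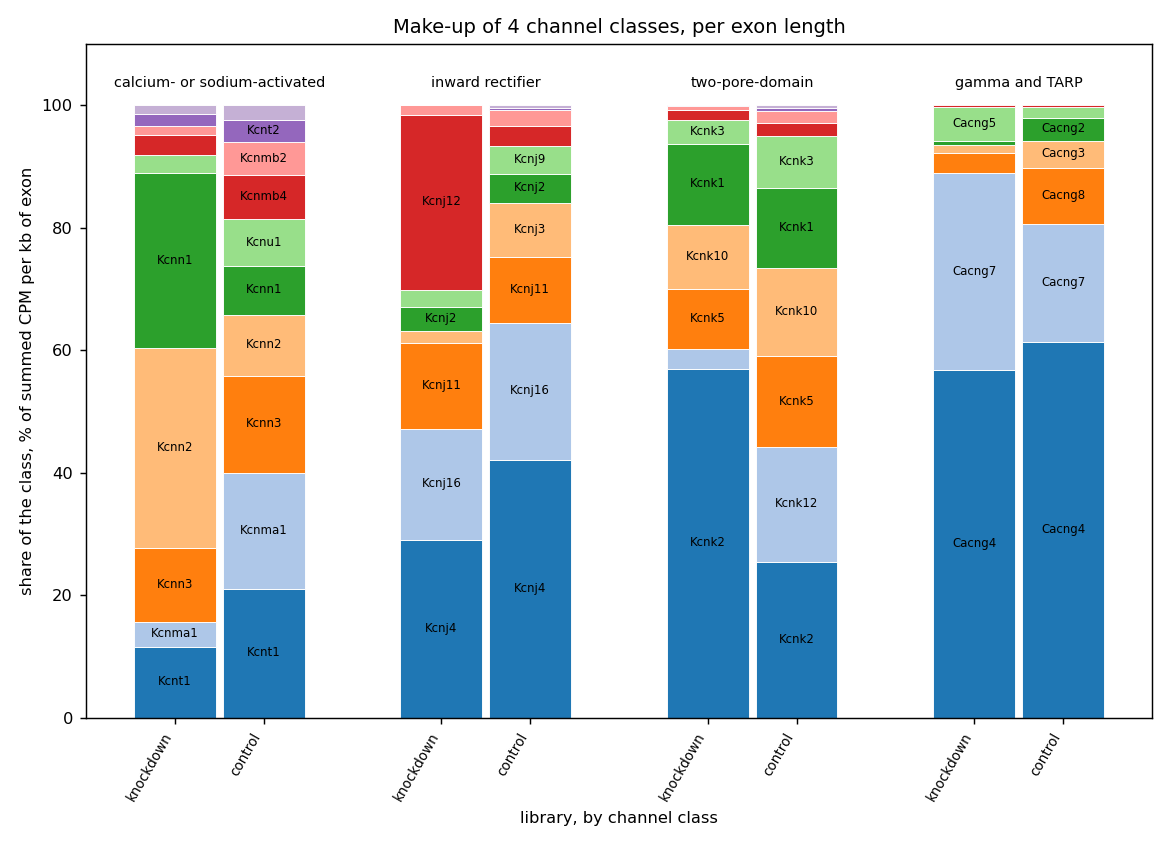
Share of each gene, in percent, in the summed level per kilobase of exon of its class, for 4 classes, with the knockdown library left of the control. Among inward rectifiers Kcnj12 holds 28.5% in the knockdown library and 3.36% in the control.

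The 21 channel genes under the minimum were scarce in both libraries, with at most 19 counts in the knockdown library and 22 in the control. Of these, 18 stood below and 3 above control, and together they had 106 counts in the knockdown library and 223 in the control, a ratio of 0.508 (0.399 to 0.643). Kcnk9, Kcnj6, Kcnj5 and Kcng4 were at 0 in the knockdown library, and none was at 0 in the control. Kcng4 had 5 counts in the control, and the interval of its ratio included 1. The peripheral sodium channel gene Scn9a had 3 and 4 counts and the muscle gene Cacng1 5 and 5 counts in the knockdown and control libraries, and a difference in them was not detectable at this depth. Cacna2d4, a retinal alpha2delta subunit, had 11 counts in the knockdown library and 1 in the control, with a wide interval on its ratio (11.8, 1.71 to 505.9).

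The 150 bases before the transcription start were read for genes at both ends of the range, because promoters are where shared letters can be looked for. RefSeq promoter windows on GRCm38.p6 were found for 79 of the 113 genes. Those shown are examples, 3 genes of each direction with large folds whose RefSeq start lies within 100 bases of the table's start. Among higher genes they are not the 3 with the largest folds. Kcnj12 (log2 fold 2.53) and Kcnn2 (2.23) are not shown, while Kcne1l (2.12) and Cacng5 (1.90) are. How often a motif occurs should be read from the counts below and not from these examples. Kcnn1 (chr8:70863259-70863408, minus strand), Kcne1l (chrX:142306199-142306348, minus strand) and Cacng5 (chr11:107915056-107915205, minus strand) were higher in the knockdown library. Kcna4 (chr2:107290439-107290588, plus strand), Kcnj3 (chr2:55435820-55435969, plus strand) and Kcnk12 (chr17:87797995-87798144, minus strand) were lower. Each is written 5′ to 3′ on the gene's strand, and capitals mark the E-box CAGCTG or the GC box GGGCGG, read on either strand (CCGCCC).
Kcnn1: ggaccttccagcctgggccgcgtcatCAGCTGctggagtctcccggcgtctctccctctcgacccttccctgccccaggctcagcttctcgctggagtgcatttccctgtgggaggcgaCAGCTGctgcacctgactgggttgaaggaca
Kcne1l: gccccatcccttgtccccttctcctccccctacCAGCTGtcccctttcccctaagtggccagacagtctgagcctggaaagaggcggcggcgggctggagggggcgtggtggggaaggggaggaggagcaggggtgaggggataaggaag
Cacng5: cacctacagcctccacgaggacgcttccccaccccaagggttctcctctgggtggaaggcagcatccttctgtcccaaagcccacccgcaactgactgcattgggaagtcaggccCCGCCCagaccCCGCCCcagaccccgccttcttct
Kcna4: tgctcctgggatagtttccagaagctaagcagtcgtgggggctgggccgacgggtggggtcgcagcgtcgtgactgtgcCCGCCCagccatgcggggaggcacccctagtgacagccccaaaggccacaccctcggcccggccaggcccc
Kcnj3: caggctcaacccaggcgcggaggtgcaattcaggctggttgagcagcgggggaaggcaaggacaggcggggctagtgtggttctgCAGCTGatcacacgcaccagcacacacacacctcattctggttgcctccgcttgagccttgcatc
Kcnk12: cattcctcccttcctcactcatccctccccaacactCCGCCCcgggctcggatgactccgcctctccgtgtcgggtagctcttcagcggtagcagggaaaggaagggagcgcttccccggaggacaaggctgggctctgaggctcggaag

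The E-box CAGCTG, a palindrome that basic helix-loop-helix factors of the proneural type can bind, was in 713 of 9923 promoters of protein-coding genes past the minimum (7.19%) and in 11 of 79 channel promoters (13.9%). Unlike the 9923, the 79 used for each motif also hold genes under the minimum, so these shares are not of like sets. The RefSeq start lay within 100 bases of the table's start for 7547 of the 9923 and 50 of the 79. For the higher, lower and within genes below, it did so for 5 of 7, 17 of 28 and 16 of 30. The E-box was in 3 of the 7 promoters found for the 8 genes that were 2-fold higher, those of Kcne1l, Kcnip3 and Kcnn1, with a pair of copies in Kcnn1. Of the 28 promoters found for the 36 genes that were lower, 4 held it (Cacna1b, Cacng3, Kcnc2 and Kcnj3), and so did 1 of 30 for genes within 2-fold. The GC box, a target of Sp factors, was in 56.2% of the protein-coding promoters and in 35 of 79 channel promoters (44.3%), 1 of 7 for higher, 11 of 28 for lower and 16 of 30 for genes within 2-fold. The TATA motif TATAAA was in 2.92% of protein-coding promoters and in 1 channel promoter, that of Cacna1d. A match describes the letters in the window alone, and binding of any factor was not measured.

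Proteins that anchor or modulate these channels were taken as a separate list of 29 genes, of which 27 passed the minimum. None was 2-fold higher in the knockdown library and 12 were 2-fold lower (44.4%), with a median log2 fold of -0.80. Among protein-coding genes 7.77% were lower and 6.97% higher, with a median of -0.013. Ank3 or ankyrin-G, the organiser of the axon initial segment, had 25.05 CPM in the knockdown library and 74.4 CPM in the control, a ratio of 0.337 (0.300 to 0.377). Its companion there, the spectrin gene Sptbn4, had 15.5 CPM in the knockdown library and 41.2 CPM in the control, a ratio of 0.376 (0.323 to 0.435). Cntnap2, which clusters Kv1 channels beside nodes, had a ratio of 0.218 (0.175 to 0.271), and Lgi1, a secreted modulator of Kv1 channels, had 0.165 (0.0891 to 0.286). Of the intracellular FGF proteins that bind the tail of sodium channels, Fgf12 and Fgf13 were 2-fold lower at log2 folds of -1.92 and -1.20, and Fgf14 was just past 2-fold at a ratio of 0.495 (0.295 to 0.809), while Fgf11 lay within 2-fold at a log2 fold of 0.83. For the sodium leak channel the pore gene Nalcn lay near its control level at 0.05, and its accessory genes Unc80 and Fam155a were 2-fold lower at -1.14 and -1.73. Stac2 and Stac, adaptors of L-type calcium channels, were at -3.09 and -1.89, and Lrrc55, a BK gamma subunit, was at -1.16. Nfasc, an adhesion protein of initial segments, and Dpp6, an A-type channel subunit, lay within 2-fold at 0.40 and 0.52.

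The beta subunits of the sodium pump, which restores the gradients that channels spend, differed by isoform. Atp1b2, the beta subunit of glia, had 589.6 CPM in the knockdown library and 184 CPM in the control, a ratio of 3.20 (3.07 to 3.33). Atp1b1 had 48.9 CPM in the knockdown library and 144 CPM in the control, a ratio of 0.339 (0.312 to 0.368), and Atp1b3 lay within 2-fold at a log2 fold of -0.47. Rest, the repressor of neuronal genes that include sodium channel genes, had 21.7 CPM in the knockdown library and 15.8 CPM in the control, a ratio of 1.37 (1.16 to 1.61). Of its co-repressors, Rcor2 lay at a log2 fold of 0.98 and Rcor1 at -0.68, both within 2-fold.

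**Figure D5:**
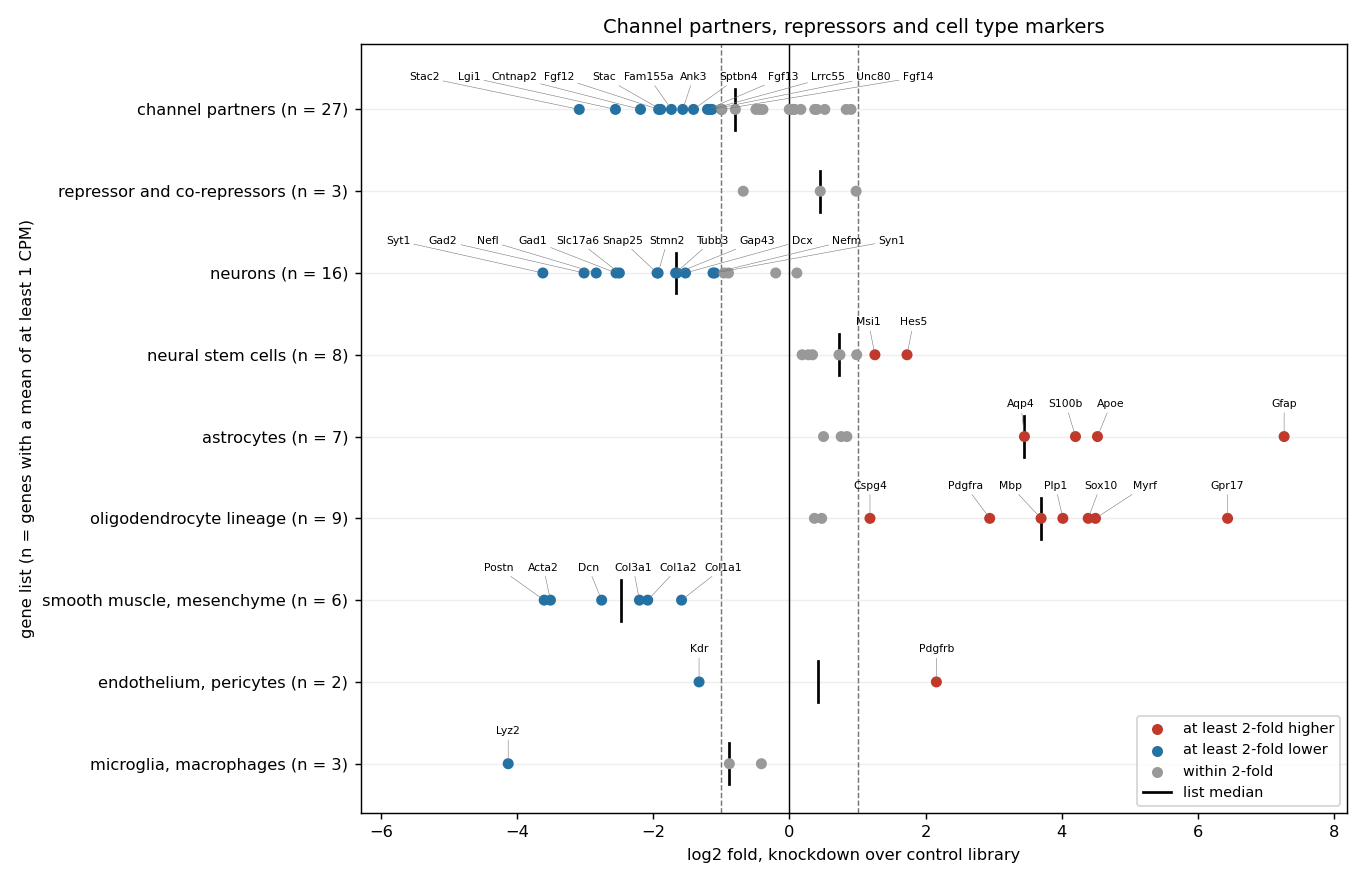
Log2 fold, knockdown over control library, of channel partners, Rest with its co-repressors and cell type markers past the minimum; a point is a gene, the black bar is the list median and dashed lines mark 2-fold. Channel partners have a median of -0.80 with 12 of 27 genes 2-fold lower, and neurons have 12 of 16 lower.

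Other cell types differed between the libraries too. All 6 smooth muscle and mesenchyme markers past the minimum were 2-fold lower, and the list summed to 40.9 CPM in the knockdown library and 332 CPM in the control, with Lum at 0 in the knockdown library. Microglia and macrophage markers summed to 12.2 CPM in the knockdown library and 36.6 CPM in the control, with Csf1r, Cx3cr1 and Tmem119 at 0 in the knockdown library. Endothelial and pericyte markers summed to 6.85 CPM in the knockdown library and 4.98 CPM in the control, with Cdh5 at 0 in the knockdown library. Most of the knockdown sum was Pdgfrb, at 5.14 CPM in the knockdown library and 1.13 CPM in the control. Kdr was 2-fold lower, at 0.571 and 1.48 CPM in the knockdown and control libraries. The other 4 of these 6 markers stayed under the minimum. Several channels named here, among them Cacna1c, Cacna1h and Kcnma1, are also made by smooth muscle, and the part of these cell types in the results was not tested.

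Length of transcript and shared exons could bear on the counts and were measured. Channel genes past the minimum had a median exon length of 5452.5 bases, against 4669 bases for protein-coding genes. By quartile of exon length, from short to long, the median log2 fold of the channel genes was -0.26, -0.65, -0.86 and -0.85, and that of protein-coding genes was 0.015, -0.0078, -0.0049 and -0.052. Channel genes lay below the protein-coding median in every quartile. Exonic bases were shared with another annotated gene by 32 of the 92 genes past the minimum, and use of strand in counting is not stated. Among the 60 others, 23 were 2-fold lower and 5 were higher. Sharing is marked above for some genes only. Kcnj3 (1621 bases), Cacnb4 (1433 bases), Kcnma1 (1016 bases) and Kcnn2, all past 2-fold, share exonic bases as well. The value of Kcnip4 is uncertain, since its 168 shared bases belong also to 5730480H06Rik, with 272 and 263 counts in the knockdown and control libraries beside 15 and 33 counts for Kcnip4.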

How the data were processed

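The data are 1 knockdown and 1 control RNA library. Tools named in the submitters' processing notes are TopHat2 2.0.12, Bowtie2 2.2.3 and HTSeq 0.6.0, with the build mm9 and no order or settings. Positions printed are the table's own, in GRCm38: all 113 channel genes overlap their GENCODE M21 positions. The authors deposited raw counts per gene and library, and CPM made from them with 0 counts replaced by 0.5, per the file headers. A fold change (ratio of these CPM), its log2, and p-values with an adjusted form were also deposited. No test is named for the p-values, which were not used.

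Counts were scaled with TMM factors of edgeR 4.0.16, 0.982 for the knockdown library and 1.018 for the control, fitted on all 19595 genes. Log2 folds add 0.5 counts, and genes with a mean under 1 CPM were set aside from counts of genes. With 1 library per group no test was made. Ratios carry exact conditional binomial (Clopper-Pearson) 95% intervals, which cover counting error only and take reads as independent. Reads copied by PCR are not independent molecules, so these intervals can be too narrow. For genes at 0 the upper end of the same interval is given. Levels per kilobase divide CPM by the union of GENCODE M21 exons. Promoters came from RefSeq.

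The channel genes, classes, partner list and markers were chosen with earlier results of these data known. Genes named are Ccdc25, those past 2-fold, the most abundant and up to 4 with the largest fold of each class, and those at 0 with at least 10 counts in the other library; other names, and genes of the partner list, were chosen after their values were seen. Some genes that this rule takes are not reported singly here and enter sums and counts only. Alternatives were DESeq2 1.42.0 size factors, total counts, the authors' CPM, no minimum or one of 10 CPM, a prior of 5 counts, 1.5-fold, and leaving out genes with shared exons. Removal of the trend with length and GC content was added after the data were seen. The calculation was tested on simulated data that hold counting error alone, so that test does not cover variation between cultures.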

Additional observations from a re-analysis of the deposited data

How the results depend on the processing

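Scaling with DESeq2 size factors, total counts or the authors' deposited CPM left every family's direction as reported: 37, 39 and 39 channel genes were 2-fold lower, all 36 reported ones among them, and 8 were higher each time. With a prior of 5 counts 33 were lower, without Kcnb2, Kcnip4 and Kcnk3, and with the trend in length and GC content removed 36 were, 35 of them shared. With no minimum, 29 potassium channel genes were lower, 2 calcium channel genes were higher and the sodium median was -1.61. With a minimum of 10 CPM, 15 channel genes were lower in all, 5 of them potassium and 4 calcium channel genes. The potassium median then turned to 0.012 and the calcium median was -0.55. The medians of KChIP (0.51), two-pore-domain (0.38) and gamma genes (0.53) also turned positive, and the gamma median was 0.096 with no minimum. At 1.5-fold, 13 channel genes were higher, 11 of them potassium and 2 calcium channel genes, and 27 potassium channel genes were lower. Without genes that share exons, 23 were lower and 5 higher; 10 potassium and 4 calcium channel genes were lower, 4 potassium genes were higher, and the gamma median was 0.53. The cause of these shifts was not tested, beyond fewer or more genes being counted. With 1 library per group no library could be left out, and genes with few counts, such as Kcna4 in the knockdown library, have wide counting intervals. No paired analysis was possible because each group has 1 library.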

Other observations

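Non-coding genes named after channel loci were not among the protein-coding genes counted. Kcnq1ot1, the imprinted antisense transcript of the Kcnq1 locus, had 163 counts in the knockdown library and 173 in the control, a ratio of 1.01. Kcnd3os had 25 counts in the knockdown library and 30 in the control. Kcnmb4os2 had 146 counts in the knockdown library and 119 in the control, a ratio of 1.31 (1.02 to 1.68). Strand of counting is not stated, so reads in exonic bases shared with a channel gene cannot be assigned to either gene. Kcnd3os shares 165 such bases with Kcnd3, and Kcnmb4os2 shares 693 with Kcnmb4.

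Genes of the same class or subgroup lay on opposite sides of the control in several places. Kcna2 was 2-fold higher and Kcna4 2-fold lower among Kv1 genes, Kcnj12 was higher and Kcnj4 lower among Kir2 genes, and Kcnk2 was higher and Kcnk4 lower among TREK and TRAAK genes. Kcnn1 was higher and Kcnma1 lower among calcium-activated genes, and Cacng5 was higher and Cacng2 lower among gamma genes. These pairs were picked after their values were seen.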
